A study of Mus musculus with 119 samples.

Results

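A set of 267 genes, of the 18098 genes measured, had lower mRNA in wild-type (WT) macrophages after 2 h of lipopolysaccharide (LPS) and a smaller fall, or none, after 1 h. The members were chosen from WT libraries alone, by a mean difference between 2 h and 0 h of at most -1, a mean difference between 1 h and 0 h above -0.7 and a mean value without LPS of at least 6, all on the log2 scale of the deposited table. Another 9 genes that met these limits were left out because their symbols begin with Zfp, Klf, Id, Rgs, Mxd or Btg, namely Klf4 and 8 genes with Zfp symbols. All 267 members passed the filter on low values that left 11971 genes for testing.

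The cells were bone marrow-derived macrophages (BMDMs) from C57BL/6(NIMR) mice, cultured overnight and left without LPS or given 100 ng/ml LPS, and RNA sequencing gave 119 libraries. WT cells were measured at 0, 0.5 and 1 h (6 libraries each) and at 2 h (4 libraries), and Map3k8[D270A] cells, which carry a kinase-inactive TPL-2, at the same 4 times (6 libraries each). Elk1-/-Elk4-/- cells lack 2 ternary complex factors (4 libraries at each of these times), and Nfkb1[SS/AA] cells carry a p105 that IKK cannot phosphorylate, so that TPL-2 is not released from it (6 libraries at 0, 0.5 and 1 h). WT cells were also treated with 2 µM of the ribosomal S6 kinase inhibitor RSKi47 (4, 3, 4 and 4 libraries at 0, 0.5, 1 and 2 h) or 0.1 µM of the MKK inhibitor PD0325901, the latter without LPS for 10, 40 or 70 min (3 libraries each) and with LPS for 0.5 and 1 h (6 libraries each), beside 3 libraries with the solvent DMSO for 10 min and no LPS. Both inhibitors were given 10 min before LPS, and RSKi47 without LPS (0 h) was measured after 10 min of inhibitor only. LPS responses with RSKi47 therefore also span more time since the inhibitor was added. The mutations were present in all cells of the mice, and the sources used here do not give the number of mice behind each group, so p-values measure the spread between these libraries.

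LPS engages TLR4 on macrophages and drives immediate early genes within minutes and inflammatory genes over the following hours. At the same time many mRNAs of resting macrophages decline, among them regulators of growth, metabolism and the cell cycle. An mRNA level can drop through less transcription or faster decay, and RNA sequencing of total RNA does not separate these, nor does it tell fewer cells with an mRNA from less mRNA per cell.

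In the targeted genes, Elk1 lay between 6.17 and 6.59 in the 16 Elk1-/-Elk4-/- libraries and between 8.55 and 9.49 in the other 103, and Elk4 between 5.51 and 5.88 against 6.88 to 8.56. The alleles of Map3k8 and Nfkb1 are substitutions, for which an mRNA level checks nothing. All 12 macrophage markers had a median of at least 6, with Lyz2 highest at 18.1, whereas 0 of 8 lymphocyte and 0 of 6 dendritic cell markers and 1 of 10 neutrophil markers (Mmp8) reached that level. None of 6 fibroblast and stromal markers reached it either (Col1a1 was highest, at 2.62), but their summed level was 4.85 to 9.07 with RSKi47 at 0 h and 4.73 to 5.73 at 2 h, against 3.67 to 4.46 in the libraries without RSKi47. No marker was a member. Single libraries stood apart for some members, such as Nfkb1[SS/AA] replicate 2 at 1 h and Elk1-/-Elk4-/- replicate 4 at 0 h for Foxo3 and RSKi47 replicate 1 at 1 h for Fos.

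Each LPS response below was tested within a genotype or inhibitor group that took no part in choosing the members, with limma's moderated test over all 11971 genes and Benjamini-Hochberg adjustment, and a gene is called lower or higher at an adjusted p below 0.05. Values in WT cells chose the members and are given as a description without a test. No group was tested against WT for the same reason.

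In WT cells, the median over the 267 members differed from 0 h by 0.02 at 0.5 h, by -0.26 at 1 h and by -1.18 at 2 h. At 1 h, 223 members lay below their level at 0 h, 42 of them by 0.5 or more. At 2 h the median over members in single WT libraries differed from the mean without LPS by -1.25, -1.22, -1.17 and -1.14. Within replicates 4 to 6 the median WT difference at 2 h was -1.20, and within replicate 7 it was -1.15. The members nearest the 2 h limit on the inside were Flcn (-1.0003), 1810034E14Rik (-1.0017) and Btbd6 (-1.0027), and on the outside Gpr65 (-0.9997), Serac1 (-0.9978) and Slco2b1 (-0.9968). At the 1 h limit, Swsap1 (-0.695) and Plekhm1 (-0.675) were just inside, and Osgin1 (-0.709) and Sesn1 (-0.711), with 2 h differences of -1.58 and -2.37, just outside.

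**Figure D1:**
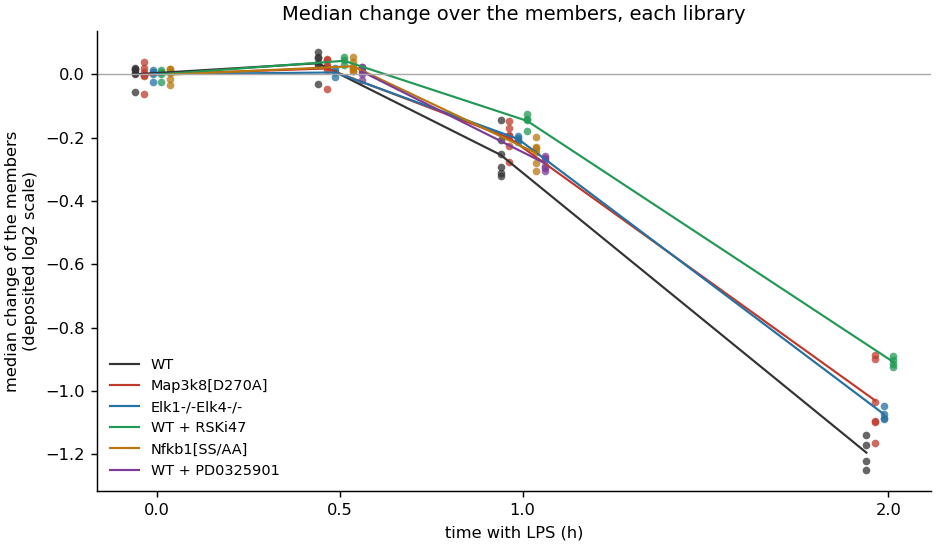
Median over the 267 members of the change from cells without LPS of the same group, on the deposited log2 scale, against time with LPS in hours. Points are single libraries and lines join group means; PD0325901 libraries with LPS are set against PD0325901 without LPS for 40 or 70 min. All groups lie near 0 at 0.5 h, between -0.13 and -0.32 at 1 h, and at -0.89 or lower at 2 h where 2 h was measured.

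The fall at 2 h was present in cells that took no part in the choice of members. In Map3k8[D270A] cells, 267 of 267 members were lower at 2 h than at 0 h, against a background of 34.9% of all genes tested called lower, and the median difference was -1.02, with members between -2.51 and -0.21. In Elk1-/-Elk4-/- cells all 267 were lower (background 32.5%), with a median of -1.08. With RSKi47, 266 were lower (background 29.7%), with a median of -0.88, and the exception was 0610010B08Rik, at -0.22. Without single RSKi47 replicates 265 or 266 were lower, and the part of the fibroblast and stromal markers was not tested further. The median over all genes tested was within 0.01 of 0 in each of these comparisons.

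A difference of at least 1 in size was reached by 142 members in Map3k8[D270A] cells (background 2.17%), 162 in Elk1-/-Elk4-/- cells (background 2.9%) and 92 with RSKi47 (background 1.69%). Every 2 h library lay below every 0 h library for 256 members in Map3k8[D270A] cells, where 22.8% of all genes tested were separated in this way, for 265 in Elk1-/-Elk4-/- cells (28.2%) and for 264 with RSKi47 (25%). The 11 members whose libraries overlapped in Map3k8[D270A] cells were 0610010B08Rik, Brca2, Ccnf, Cdc25b, Cdca2, Esco2, Kif20b, Kifc1, Lrrc14b, Mbd4 and Zfand4. The median 2 h difference in Map3k8[D270A] cells was -1.12 within replicates 1 to 3 and -0.93 within replicates 4 to 6, with 265 and 266 members called lower.

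Most of the fall came between 1 and 2 h. Between these times 264 members were lower in Map3k8[D270A] cells (background 29.7%), 263 in Elk1-/-Elk4-/- cells (background 27.6%) and 262 with RSKi47 (background 24.4%), with medians of -0.84, -0.91 and -0.75. One member, Mbd4, went the other way in Map3k8[D270A] cells and rose by 0.25 from 1 to 2 h (SE 0.07, adjusted p = 0.00067).

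The members with the largest falls were ordered by the mean difference at 2 h over Map3k8[D270A], Elk1-/-Elk4-/- and RSKi47 cells, and the 12 lowest included Irf2bp2, Fam214a, Arhgap25, Per1, Foxo3, Mnt, Ccsap, Trp53inp1, Plekhg3, Lpar5 and Fos. Irf2bp2 encodes a transcriptional corepressor that binds IRF2. In Map3k8[D270A] cells its lowest, median and highest values were 11.17, 11.26 and 11.33 without LPS and 8.38, 8.74 and 9.09 at 2 h. In Elk1-/-Elk4-/- cells the 4 libraries were 11.25, 11.15, 11.38 and 11.21 without LPS and 8.58, 8.55, 8.61 and 8.51 at 2 h, and with RSKi47 they were 11.57, 11.49, 11.55 and 11.48 against 9.19, 8.94, 8.98 and 9.16. The groups were far apart in all 3, and the differences were -2.51 (SE 0.08), -2.69 (SE 0.10) and -2.46 (SE 0.10), with adjusted p = 9.0e-52, 1.5e-46 and 3.4e-43. In WT cells the 2 h libraries were 8.65, 9.04, 8.75 and 8.90, against 11.22 to 11.41 without LPS. Irf2bp2 was already lower at 1 h in all 5 groups tested at that time, with differences of -0.97 (SE 0.08) in Map3k8[D270A], -0.33 (SE 0.10) in Elk1-/-Elk4-/-, -0.54 (SE 0.08) in Nfkb1[SS/AA], -0.42 (SE 0.10) with RSKi47 and -0.66 (SE 0.10) with PD0325901.

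Fam214a, a gene of less known function, kept its level at 1 h and then fell. In Map3k8[D270A] cells its lowest, median and highest values were 9.60, 9.76 and 9.97 at 0 h, 9.60, 9.94 and 9.98 at 1 h and 7.16, 7.39 and 7.55 at 2 h. In Elk1-/-Elk4-/- cells the libraries were 9.62, 9.71, 9.63 and 9.57 at 0 h and 7.35, 7.36, 7.48 and 7.25 at 2 h. The 0 h and 1 h ranges overlapped and the 2 h range lay far below both. The differences at 2 h were -2.41 (SE 0.07, adjusted p = 1.7e-56), -2.27 (SE 0.08, adjusted p = 1.7e-46) and, with RSKi47, -1.79 (SE 0.08, adjusted p = 4.6e-38). With RSKi47, Fam214a rose by 0.36 at 1 h (SE 0.08, adjusted p = 0.00013).

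Per1, a repressor of the circadian clock, had a short rise at 0.5 h in WT cells, from 8.73, 8.82 and 8.97 (lowest, median and highest) to 9.05, 9.19 and 9.37, and 2 h values of 7.02, 6.96, 7.00 and 6.85. It fell at 2 h, with differences of -1.91 in Map3k8[D270A] (SE 0.07), -2.02 in Elk1-/-Elk4-/- (SE 0.09) and -1.88 with RSKi47 (SE 0.09), with adjusted p = 3.3e-45, 9.7e-40 and 4.6e-37. The 1 h values of Per1 differed by group. It fell, with differences of -0.33 in Map3k8[D270A] (SE 0.07), -0.56 in Elk1-/-Elk4-/- (SE 0.09) and -0.58 with PD0325901 (SE 0.09), and it rose by 0.18 in Nfkb1[SS/AA] cells (SE 0.07, adjusted p = 0.031), a call lost without replicate 1, 5 or 6. With RSKi47 the 1 h libraries were 9.86, 9.26, 9.34 and 8.73, against 9.13 to 9.20 without LPS, and the difference of 0.13 turned to -0.04 without replicate 1.

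Foxo3, a transcription factor active when growth factor signalling is low, was 9.95 to 10.03 in the 4 RSKi47 libraries at 0 h and 7.97 to 8.14 in the 4 at 2 h. In Map3k8[D270A] cells its range was 9.67 to 9.94 (median 9.84) at 0 h and 7.58 to 8.13 (median 7.95) at 2 h. The ranges did not meet in either, and the differences were -1.95 (SE 0.08, adjusted p = 4.1e-41) and -1.92 (SE 0.07, adjusted p = 2.7e-48). In Elk1-/-Elk4-/- cells it fell by 1.85 (SE 0.08, adjusted p = 1.6e-39). Foxo3 was lower at 1 h in all 5 groups, with differences from -0.62 to -0.25, and in Nfkb1[SS/AA] replicate 2 at 1 h it stood at 8.50, below the next library at 9.16.

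Mnt, which dimerises with MAX and opposes MYC, fell, with differences of -1.78 in Map3k8[D270A] (SE 0.05), -1.92 in Elk1-/-Elk4-/- (SE 0.06) and -1.98 with RSKi47 (SE 0.06). Its Elk1-/-Elk4-/- libraries were 10.23, 10.25, 10.23 and 10.03 at 0 h, 9.39, 9.48, 9.47 and 9.27 at 1 h and 8.21, 8.27, 8.16 and 8.40 at 2 h. These 3 ranges were separate, and Mnt was the member with the smallest adjusted p among those that fell at 1 h in Elk1-/-Elk4-/- (-0.78, SE 0.06, adjusted p = 1.6e-20) and with PD0325901 (-1.04, SE 0.06, adjusted p = 1.0e-28).

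Arhgap25, a GTPase-activating protein of leukocytes, fell, with differences of -2.33 in Map3k8[D270A] (SE 0.09), -1.57 in Elk1-/-Elk4-/- (SE 0.11) and -2.06 with RSKi47 (SE 0.11).

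**Figure D2:**
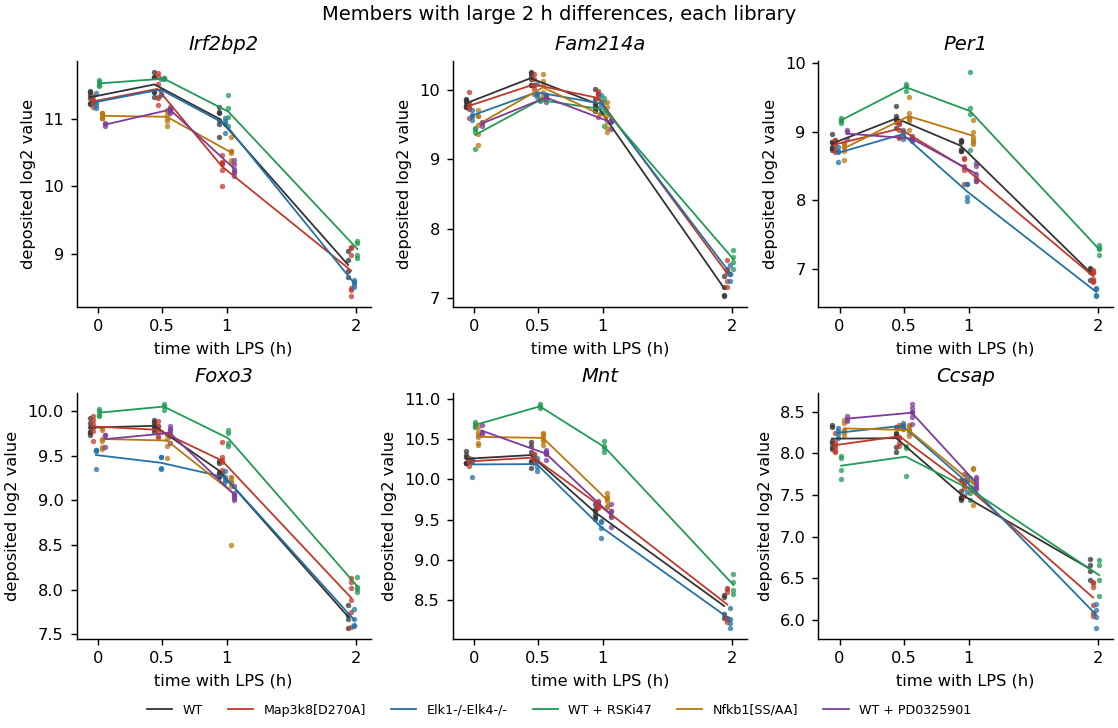
Deposited log2 values of 6 members with large 2 h differences against time with LPS in hours; points are single libraries, lines join group means and colours mark genotype or inhibitor. For PD0325901 the point at 0 is 70 min of inhibitor without LPS. Group means of Fam214a at 0.5 h lie above the start in every group and those of Per1 in every group but PD0325901. Foxo3, Mnt and Ccsap are already lower at 1 h, and all 6 lie lowest at 2 h where 2 h was measured.

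The promoters of 216 members are in RefSeq for GRCm38.p6, each as the 250 bases before and 50 bases after the gene's start. For members and tested genes only the first listed window of a gene was searched, whereas the count over all windows takes every listed window. The E-box CACGTG, searched on both strands, was found in 14.4% of these windows, in 11.1% of the 8179 windows of genes tested with a WT value of at least 6 without LPS, and in 7.15% of all 32851 windows. It is the core letters bound by MYC, MAX and MNT dimers and by the clock factors CLOCK and BMAL. Fam214a, Per1 and Mnt hold 1 match each and are shown with the E-box in capitals, since they are the 3 of the 12 members with the largest falls whose window has this match. Their regions are chr9:74952630-74952929, chr11:69098699-69098998 and chr11:74830674-74830973, all on the plus strand.
Fam214a: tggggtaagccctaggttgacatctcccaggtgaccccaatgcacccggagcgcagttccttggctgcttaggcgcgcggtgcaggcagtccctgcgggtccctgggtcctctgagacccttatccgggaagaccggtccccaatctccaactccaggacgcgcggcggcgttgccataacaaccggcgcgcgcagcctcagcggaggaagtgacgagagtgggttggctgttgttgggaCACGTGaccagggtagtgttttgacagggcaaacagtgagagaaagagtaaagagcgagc
Per1: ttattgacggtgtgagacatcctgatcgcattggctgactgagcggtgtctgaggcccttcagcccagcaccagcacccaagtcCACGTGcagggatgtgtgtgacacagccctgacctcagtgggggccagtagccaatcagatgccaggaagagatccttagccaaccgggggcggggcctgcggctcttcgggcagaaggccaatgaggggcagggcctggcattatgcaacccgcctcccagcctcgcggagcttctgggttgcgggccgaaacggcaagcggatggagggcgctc
Mnt: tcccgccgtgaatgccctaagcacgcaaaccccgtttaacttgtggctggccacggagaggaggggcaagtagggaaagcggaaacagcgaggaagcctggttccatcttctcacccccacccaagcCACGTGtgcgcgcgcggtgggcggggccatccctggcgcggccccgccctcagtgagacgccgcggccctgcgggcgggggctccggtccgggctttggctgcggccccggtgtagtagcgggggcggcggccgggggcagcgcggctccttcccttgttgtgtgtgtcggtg
The match starts at position -10 in Fam214a, -166 in Per1 and -123 in Mnt, counted from the gene's start. It is a match of letters only.

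The members were grouped by known role after their values had been seen, so the groups are a description. The nutrient and lysosome group held 12 members, among them Foxo3, Trp53inp1, Tfeb, which drives lysosomal genes, Nbr1, an autophagy receptor, Flcn, Sesn2 and Klhl24. Its median difference at 2 h was -1.07 in Map3k8[D270A], -1.23 in Elk1-/-Elk4-/- and -0.95 with RSKi47. Tfeb fell, with differences of -1.51 in Map3k8[D270A] (SE 0.05, adjusted p = 6.8e-46), -1.24 in Elk1-/-Elk4-/- (SE 0.07, adjusted p = 3.1e-32) and -0.99 with RSKi47 (SE 0.07, adjusted p = 2.4e-25). In a list of 28 tested FoxO and nutrient-responsive genes, 16 were lower at 2 h in all 3 groups and 3 higher, where 23.1% of all genes tested were lower in all 3 and 26% higher. The list was drawn up with earlier results of these data known, and 5 of its genes, Per1, Foxo3, Ypel2, Klhl24 and Sesn2, are members.

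The clock group held Per1, Dbp, Tef and Bhlhe41. Dbp and Tef encode PAR-type bZIP factors whose mRNAs follow the clock, and Bhlhe41 is a clock repressor. Dbp fell, with differences of -1.28 in Map3k8[D270A] (SE 0.11), -1.02 in Elk1-/-Elk4-/- (SE 0.13) and -0.82 with RSKi47 (SE 0.13). Tef fell, with differences of -0.88 (SE 0.06), -0.92 (SE 0.07) and -0.75 (SE 0.07) in the same order. Bhlhe41 fell, with differences of -1.33 (SE 0.10) and -1.58 (SE 0.12) in the mutants and -0.66 (SE 0.12) with RSKi47.

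The DNA repair and replication group was the largest, with 25 members, among them Brca2 and Swsap1 of homologous recombination, Msh6, Mlh3, Pms1 and Exo1 of mismatch repair, Ung and Mbd4 of base excision repair, Xpc of nucleotide excision repair, and Cdc6, Gmnn and Orc5 of replication licensing. Its median difference at 2 h was -0.90 in Map3k8[D270A], -1.11 in Elk1-/-Elk4-/- and -0.87 with RSKi47. Msh6, a mismatch recognition subunit, was 9.32 to 9.57 in Elk1-/-Elk4-/- cells at 0 h and 7.92 to 7.99 at 2 h, a difference of -1.47 (SE 0.09, adjusted p = 1.3e-27). It differed by -0.99 in Map3k8[D270A] (SE 0.08) and -0.97 with RSKi47 (SE 0.09). Cdc6, which loads the replicative helicase, fell, with differences of -0.98 in Map3k8[D270A] (SE 0.10), -1.19 in Elk1-/-Elk4-/- (SE 0.13) and -0.95 with RSKi47 (SE 0.13). Xpc fell, with differences of -1.14 (SE 0.05), -1.11 (SE 0.06) and -1.03 (SE 0.06) and was lower at 1 h in all 5 groups.

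Among the cell division members, Ccnf, which encodes cyclin F, ranged from 8.002 to 9.07 (median 8.65) in Map3k8[D270A] cells at 0 h and from 7.12 to 8.11 (median 7.46) at 2 h. These ranges overlapped, and the difference of -1.04 had an SE of 0.16 (adjusted p = 2.4e-08). Ccnf was 8.90 to 8.96 with RSKi47 at 0 h and 7.38 to 7.88 at 2 h, without overlap. Skp2, the substrate receptor of an SCF ubiquitin ligase that degrades CDK inhibitors, fell, with differences of -1.01 in Map3k8[D270A] (SE 0.06), -1.77 in Elk1-/-Elk4-/- (SE 0.08) and -1.17 with RSKi47 (SE 0.08). E2f2, an E2F transcription factor, fell, with differences of -1.34 (SE 0.12), -1.38 (SE 0.14) and -1.53 (SE 0.14). Of 46 tested genes of a cell cycle and DNA replication list, 14 were lower in all 3 groups and 7 higher, and of 38 tested DNA repair genes with Fanconi, Brca or Rad symbols 18 were lower and 2 higher, again beside 23.1% and 26% of all genes tested.

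The E2F motif TTTCCCGC, searched on both strands, was in 11 of the 216 promoter windows of members (5.09%), in 2.32% of the windows of genes tested with a WT value of at least 6 without LPS, and in 1.07% of all windows. The members with a match were Ap4m1, Brca2, Cdc6, Cdca7, Dnmbp, Fam234b, Msh6, Sirt4, Snx33, Suv420h2 and Tmem194b. Cdc6 and Msh6 are shown because both belong to the repair and replication group, with the matched letters in capitals (the reverse complement in Cdc6), from chr11:98907901-98908200 and chr17:87974800-87975099 of GRCm38.p6 on the plus strand.
Cdc6: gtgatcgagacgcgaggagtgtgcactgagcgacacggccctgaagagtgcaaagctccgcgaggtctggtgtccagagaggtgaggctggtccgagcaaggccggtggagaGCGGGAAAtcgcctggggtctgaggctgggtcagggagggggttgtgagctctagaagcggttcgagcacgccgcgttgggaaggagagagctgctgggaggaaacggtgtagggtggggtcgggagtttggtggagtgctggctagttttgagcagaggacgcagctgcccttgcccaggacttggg
Msh6: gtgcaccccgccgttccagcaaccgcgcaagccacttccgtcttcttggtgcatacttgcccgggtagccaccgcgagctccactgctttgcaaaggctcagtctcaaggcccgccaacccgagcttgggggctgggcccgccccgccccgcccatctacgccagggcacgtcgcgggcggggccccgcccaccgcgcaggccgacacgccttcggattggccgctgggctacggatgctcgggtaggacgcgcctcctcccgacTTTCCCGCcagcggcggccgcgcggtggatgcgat
The match starts at position -138 in Cdc6 and 15 in Msh6. Of the other motifs counted, the cAMP response element TGACGTCA was in 4.63% of the members' windows against 3.51% of the tested genes' windows and the AP-1 letters TGANTCA in 3.24% against 4.65%. The ETS letters CCGGAAGT were in 6.02% against 9.83%, the TATA box TATAAA in 9.72% against 6.46%, the CCAAT box CCAAT in 43.5% against 39.3% and the CHR letters TTTGAA of cell cycle promoters in 13.4% against 11.9%. The NF-kB motif, searched loosely with any base allowed in its middle, was in 65.3% against 68.4%. The GC box GGGCGG was in 64.8% against 66.7% and the FoxO letters GTAAACA in 2.31% against 2.51%. The D-box TTATGTAA was in 0.926% against 0.452%, which is 2 members. A fixed sequence of the CArG type, with no variable base, was in 0.463% against 0.0367%, which is 1 member. Other CArG sequences were not searched, so CArG sites in general were not counted. A match of the NF-kB motif can contain the GC box or CCAAT letters. These shares are descriptions without a test.

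At 1 h the members were split. Members called lower numbered 150 in Map3k8[D270A] (background 20.5%), 134 in Elk1-/-Elk4-/- (background 17.2%), 172 in Nfkb1[SS/AA] (background 21.9%), 94 with RSKi47 (background 14%) and 164 with PD0325901 against 70 min of inhibitor alone (background 21.7%). The medians were -0.20, -0.22, -0.26, -0.15 and -0.29 in that order. Members called higher numbered 20 (background 22.5%), 12 (17.1%), 16 (22.5%), 14 (15%) and 17 (21.9%).

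Across the 5 groups, 80 members were lower at 1 h in all 5 (30% of members, beside 9.83% of all genes tested), 117 in 1 to 4, and 70 in 0 (26.2%, beside 68.4% of all genes tested). The 80 had a median WT difference of -0.48 at 1 h and the 70 of 0.03, whereas at 2 h their medians were -1.03 and -0.95 in Map3k8[D270A], -1.05 and -1.10 in Elk1-/-Elk4-/-, and -0.99 and -0.85 with RSKi47. These 1 h and 2 h differences share the libraries without LPS. Tor4a, a torsin family ATPase, was among the 80: with RSKi47 it stood at 10.95 to 11.04 at 0 h, 10.42 to 10.44 at 1 h and 9.83 to 10.05 at 2 h, and in Nfkb1[SS/AA] cells it fell by 0.89 at 1 h (SE 0.04, adjusted p = 2.9e-39). Atmin, a cofactor of ATM signalling, fell, with differences of -0.50, -0.51, -0.64, -0.36 and -0.68 at 1 h in Map3k8[D270A], Elk1-/-Elk4-/-, Nfkb1[SS/AA], RSKi47 and PD0325901 cells, each with an SE of 0.04. Casp9, the initiator caspase of the mitochondrial pathway, fell at 1 h in all 5 groups, with differences from -0.58 to -0.38.

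By role, the 70 never called lower at 1 h held 8 of the 10 cell division members, 4 of the 10 immediate early and MAP kinase members, 4 of the 9 receptors, channels and surface proteins, 7 of the 25 repair and replication members, and 0 of the 4 clock and 0 of the 6 innate sensing and apoptosis members, beside the shares of 26.2% of members and 68.4% of all genes given above. Errors were larger for some cell division members, such as Ccnf, whose SE at 1 h was 0.16 in Map3k8[D270A] and 0.20 with RSKi47, against medians over members of 0.07 and 0.08. Brca2 was one of the 70: its 1 h differences ran from -0.06 to 0.15 over the 5 groups, and at 2 h it fell, with differences of -0.78 in Map3k8[D270A] (SE 0.14, adjusted p = 5.6e-07), -1.05 in Elk1-/-Elk4-/- (SE 0.17, adjusted p = 6.2e-08) and -0.62 with RSKi47 (SE 0.17, adjusted p = 0.00098). Its WT libraries without LPS spread from 7.08 to 7.99.

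**Figure D3:**
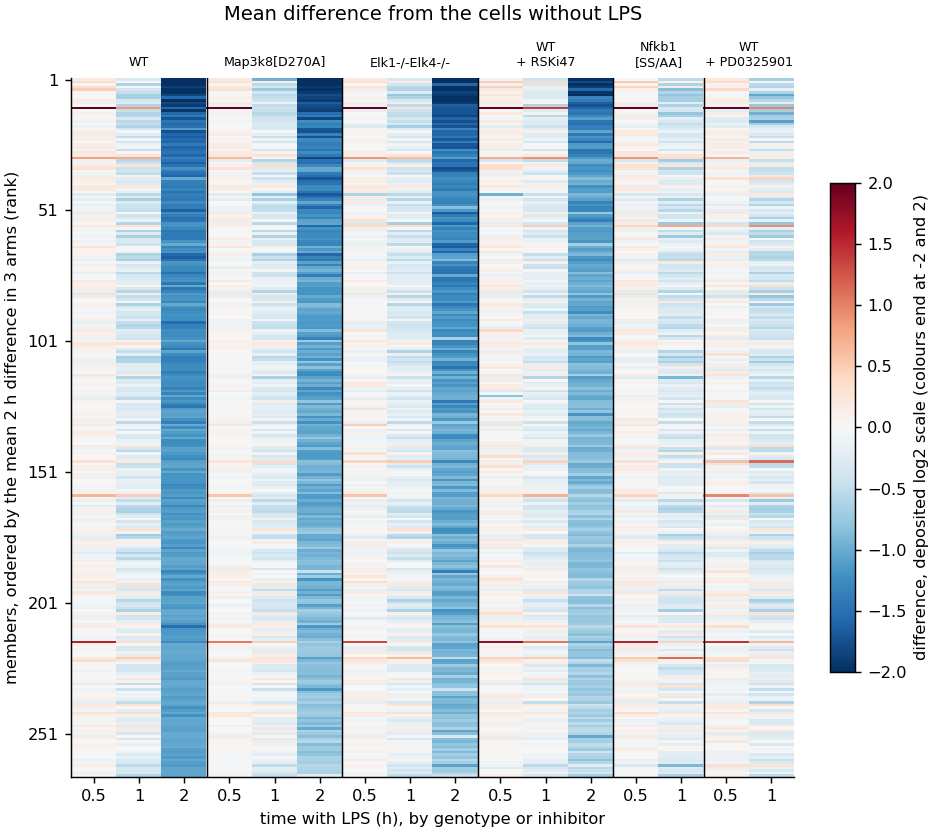
Mean difference of each of the 267 members from cells of the same group without LPS (for PD0325901, from the inhibitor alone for the matching time), with 1 row a member and columns by group and time in hours. Blue is lower and red higher, and the colours end at -2 and 2. The 2 h columns are blue throughout, the 1 h columns are pale blue with many white rows, and a few red rows mark members that rose first.

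A small number of members rose before they fell. Called higher at 1 h in all 5 groups were Gadd45a, a stress-induced growth arrest gene, Pot1a of telomeres and Ccp110 of the centriole, and 7 further members were higher in 4 of 5, among them Jun, Plau and Kcnj2. These are 1.12% and 2.62% of members, beside 10.3% and 3.89% of all genes tested. Fos, the AP-1 subunit, was the most responsive at 0.5 h in every group. In WT cells its lowest, median and highest values were 10.34, 10.68 and 10.98 at 0 h, 13.59, 13.86 and 13.99 at 0.5 h and 11.17, 11.55 and 11.85 at 1 h, and the 2 h libraries were 8.96, 9.04, 9.23 and 9.30. All 2 h libraries thus lay below all those without LPS. At 2 h Fos fell, with differences of -1.82 in Map3k8[D270A] (SE 0.11, adjusted p = 1.1e-29), -1.71 in Elk1-/-Elk4-/- (SE 0.13, adjusted p = 4.2e-22) and -1.61 with RSKi47 (SE 0.13, adjusted p = 2.6e-20).

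At 0.5 h the mean difference of Fos from 0 h was 3.15 in WT, 2.02 in Map3k8[D270A], 1.98 in Elk1-/-Elk4-/-, 2.33 in Nfkb1[SS/AA] and 2.66 with RSKi47, and it was 3.06 with PD0325901 against 40 min of inhibitor alone. At 1 h it was below its starting level in Map3k8[D270A] (-0.41, SE 0.11, adjusted p = 0.00096) and Nfkb1[SS/AA] cells (-0.31, SE 0.11, adjusted p = 0.011), while in Elk1-/-Elk4-/- cells the difference was 0.25 (SE 0.13, adjusted p = 0.14), and Fos was above its start with RSKi47 (1.38, SE 0.13, adjusted p = 3.7e-16) and PD0325901 (0.98, SE 0.13, adjusted p = 3.2e-10). The RSKi47 libraries at 1 h were 12.67, 11.50, 11.41 and 11.35, so replicate 1 stood above the others, and without it the difference was 1.04. The comparisons with PD0325901 at 0.5 and 1 h rest on a lowered start, since Fos was 10.77, 10.75 and 10.72 after 10 min of inhibitor, 9.35 to 9.52 after 40 min and 9.14, 9.15 and 9.07 after 70 min.

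Jun, the partner of Fos in AP-1, was 11.71 to 11.85 with RSKi47 at 0 h, 12.76 to 12.88 at 1 h and 10.38 to 10.93 at 2 h. Its changes were 1.05 at 1 h (SE 0.09, adjusted p = 7.9e-19) and -1.05 at 2 h (SE 0.09, adjusted p = 2.3e-19). With PD0325901 it was 11.98 to 12.04 after 10 min of inhibitor, 11.31 to 11.38 after 70 min and 11.96 to 12.08 with LPS for 1 h, so that its call at 1 h also rests on a lowered start. In Map3k8[D270A] cells it rose by 0.47 (SE 0.07) and at 2 h the difference from the start was -0.65 (SE 0.07, adjusted p = 9.3e-14). Gadd45a in Nfkb1[SS/AA] cells rose from 8.79 to 9.39 (median 9.16) at 0 h to between 10.09 and 10.53 (median 10.23) at 1 h, an increase of 1.12 (SE 0.09, adjusted p = 6.9e-21). In Elk1-/-Elk4-/- cells its 0 h and 2 h ranges met, 8.36 to 8.81 against 7.91 to 8.42, with a difference of -0.50 (SE 0.11, adjusted p = 2.9e-05).

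Plau, the urokinase plasminogen activator, rose at 1 h by 0.77 in Nfkb1[SS/AA] (SE 0.08, adjusted p = 9.5e-15), 0.49 with RSKi47 (SE 0.10), 0.36 in Elk1-/-Elk4-/- (SE 0.10) and 0.93 with PD0325901 (SE 0.10), and its difference in Map3k8[D270A] cells was -0.05 (SE 0.08, adjusted p = 0.65). With PD0325901 its start was also lowered, since the mean was 13.42 after 10 min of inhibitor, 12.56 after 70 min and 13.49 with LPS for 1 h. At 2 h Plau fell, with differences of -1.55 (SE 0.08), -1.15 (SE 0.10) and -0.95 (SE 0.10) in Map3k8[D270A], Elk1-/-Elk4-/- and RSKi47 cells. Kcnj2, an inward rectifier potassium channel, rose at 1 h by 1.13 with PD0325901 (SE 0.10, adjusted p = 4.2e-18) from a start that differed by -0.58 (SE 0.11) between 70 and 10 min of inhibitor. Vegfa, the vascular growth factor, had WT values of 9.90 to 10.61 at 0 h, 10.78 to 11.41 at 1 h and 8.69 to 9.35 at 2 h, and fell at 2 h, with differences of -1.82 in Map3k8[D270A] (SE 0.16), -1.10 in Elk1-/-Elk4-/- (SE 0.20) and -1.15 with RSKi47 (SE 0.20).

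**Figure D4:**
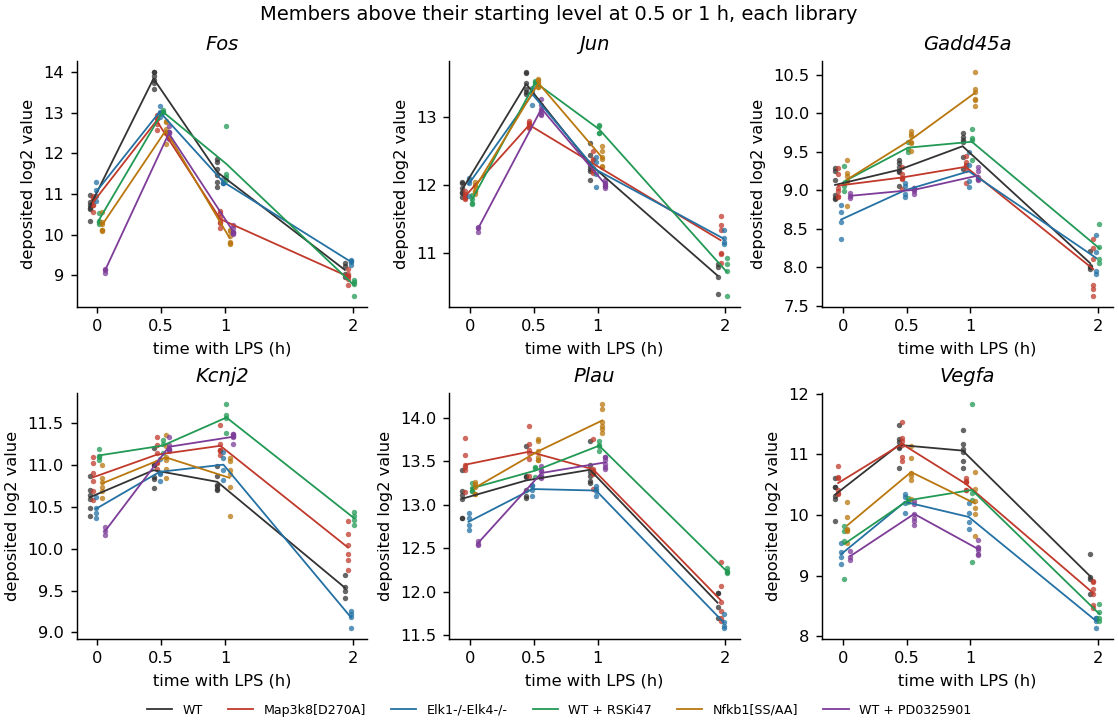
Deposited log2 values of 6 members that lay above their starting level at 0.5 or 1 h, against time with LPS in hours, drawn as single libraries (points) and group means (lines). For PD0325901 the point at 0 is 70 min of inhibitor without LPS. Fos reaches 13.59 to 13.99 in WT cells at 0.5 h and lies below its start in every group measured at 2 h.

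Between 10 and 70 min of PD0325901 alone, without LPS, 13 members were lower (background 3.47%) and 10 higher (background 2.62%), and the median over members was within 0.01 of 0. The lower members included Fos, which differed by -1.63 (SE 0.15, adjusted p = 1.9e-15), Spry2, an inhibitor of receptor tyrosine kinase signalling, by -0.92 (SE 0.10, adjusted p = 1.7e-11), Plau by -0.86 (SE 0.11, adjusted p = 4.6e-09), Stk17b, an apoptosis-related kinase, by -0.82 (SE 0.10, adjusted p = 1.6e-10) and Jun by -0.65 (SE 0.10, adjusted p = 1.0e-06). Among the higher members were Tab1, an adaptor of TAK1 and the only member in the Toll-like receptor list, by 0.37 (SE 0.07, adjusted p = 0.00012) and Mnt by 0.28 (SE 0.07, adjusted p = 0.0060). DMSO at 40 or 70 min was not analysed here, so time in culture and inhibitor cannot be told apart here. Leaving out replicate 1, 2 or 3 lowered the count of changed members from 23 to 15, 13 or 14, of which 12 were lower each time, whereas a fit on these groups alone called 23 lower and 22 higher.

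The 2 h response of members was compared between the groups. Against Elk1-/-Elk4-/- cells it was smaller with RSKi47 for many members. Against Elk1-/-Elk4-/-, the difference between responses was called for 88 members, 83 of them with the smaller fall in RSKi47 cells (background 8.45%) and 5 with the larger fall (background 8.33%), and the median difference was 0.20. The 5 were Arhgap25, Ddi2, Tmem51, Tnfaip8l2 and Tnrc18. Lonrf3, a RING finger protein with a LON peptidase N-terminal domain, was 11.43 to 11.61 in Elk1-/-Elk4-/- cells at 0 h and 9.77 to 9.97 at 2 h, and 11.35 to 11.50 and 10.59 to 10.71 with RSKi47. The starting ranges overlapped and the 2 h ranges did not, and the responses of -1.66 and -0.76 differed by 0.90 (SE 0.09, adjusted p = 8.9e-13). Ccsap, a centriole and spindle protein, fell, with differences of -2.18 and -1.31, a difference of 0.87 (SE 0.11, adjusted p = 7.0e-10), and Nbr1 had responses of -0.98 and -0.50, a difference of 0.48 (SE 0.06, adjusted p = 8.1e-11). By role, the smaller fall with RSKi47 was called for 7 of 12 nutrient and lysosome members, 6 of 9 receptors, channels and surface proteins, 6 of 13 centrosome and cilium members and 1 of 10 cell division members. Errors of this difference were larger for some cell division members, such as Ccnf (SE 0.29) and Kif20b (SE 0.28), against a median over members of 0.11. The 8 of 25 repair and replication members were close to the 83 of 267 over all members. The summed level of the 10 neutrophil markers, on the log2 scale, was 10.84 to 11.12 in Elk1-/-Elk4-/- libraries at 0 h and 11.22 to 11.47 at 2 h, against 10.05 to 10.58 and 10.12 to 10.68 with RSKi47 and 9.21 to 10.08 and 9.21 to 9.98 in Map3k8[D270A] cells. Single markers of this list had medians over libraries from -0.23 (Ly6g) to 9.54 (Mmp8). The part of these markers in the differences that involve Elk1-/-Elk4-/- cells was not tested.

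Against Map3k8[D270A], 66 members differed, 61 with the smaller fall with RSKi47 (background 9.26%) and 5 with the larger (background 9.42%), and the median difference was 0.12. With a replicate block, which the same-number correlations of these groups allow, 92 and 18 were called, and in a fit on these groups alone 40 and 2. With Map3k8[D270A] replicates 1 to 3 alone 95 and 9 were called, and with replicates 4 to 6 alone 30 and 11, with medians of 0.22 and 0.05, so the size of this difference went with the group of Map3k8[D270A] libraries. Stk17b fell from 10.53 to 10.79 (median 10.66) at 0 h to 8.73 to 9.24 (median 8.88) at 2 h in Map3k8[D270A] cells, and with RSKi47 it went from 10.28 to 10.51 down to 9.45 to 9.70. These responses of -1.73 and -0.87 differed by 0.85 (SE 0.11, adjusted p = 1.7e-09). Kantr, a long noncoding RNA, fell, with differences of -1.12 and -0.41, a difference of 0.71 (SE 0.10, adjusted p = 7.5e-08), and Fam212b had responses of -1.83 and -1.11, a difference of 0.72 (SE 0.11, adjusted p = 1.5e-07). LPS with solvent alone and RSKi47 without LPS beyond 10 min were not analysed here. In both comparisons with RSKi47, the effects of the inhibitor, of time with it and of its culture cannot be told apart.

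**Figure D5:**
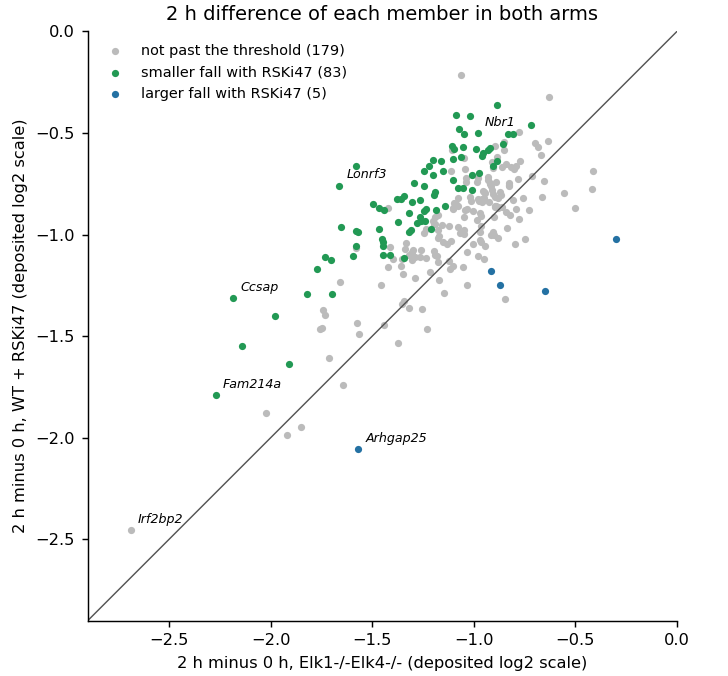
Difference between 2 h and 0 h of each of the 267 members in Elk1-/-Elk4-/- cells (horizontal axis) and with RSKi47 (vertical axis), both on the deposited log2 scale; the line marks equal differences. Green points (83) had the smaller fall and blue points (5) the larger fall with RSKi47 by the test of the difference, and grey points (179) did not pass it.

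Elk1-/-Elk4-/- and Map3k8[D270A] cells differed for 63 members, 41 with the larger fall in Elk1-/-Elk4-/- cells (background 9.41%) and 22 with the smaller (background 9.4%), and the median difference was -0.06. Against Map3k8[D270A] replicates 1 to 3 alone the split was 33 to 48 and against replicates 4 to 6 alone 54 to 9, so the direction of the split depended on the Map3k8[D270A] libraries used. In a fit on these groups alone 28 and 9 were called. Depdc7, a DEP domain gene, had the smallest adjusted p. It was 6.58 to 7.08 (median 6.85) in Map3k8[D270A] cells at 0 h and 6.29 to 6.51 (median 6.38) at 2 h, and 6.87 to 7.24 and 5.59 to 5.84 in Elk1-/-Elk4-/- cells. Its responses of -0.45 and -1.38 differed by -0.93 (SE 0.11, adjusted p = 1.2e-10). The responses of Skp2 differed by -0.76 (SE 0.10, adjusted p = 7.3e-09) and those of Rassf3, a RAS association domain gene, by -0.46 (SE 0.06, adjusted p = 1.2e-09), both with the larger fall in Elk1-/-Elk4-/-. Arhgap25 had the larger fall in Map3k8[D270A] cells, with a difference of 0.76 (SE 0.14, adjusted p = 1.1e-05).

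At 2 h the levels themselves, given side by side with WT and without a test, had a median difference from WT of 0.16 in Map3k8[D270A] cells, with 225 of 267 members above WT, of 0.14 in Elk1-/-Elk4-/- cells (194 above) and of 0.33 with RSKi47 (238 above). Without LPS the medians were -0.02, 0.04 and 0.02, with 106, 149 and 143 above WT. The choice of members by low WT values at 2 h favours values above WT in other groups.

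The members with the smallest falls over the 3 groups were Mbd4, Gapt, 1700030K09Rik and Sirt4. Mbd4, a DNA glycosylase, had WT libraries of 7.48 to 7.62 at 0 h and 6.36 to 6.67 at 2 h. In Map3k8[D270A] cells it was 7.40 to 7.67 (median 7.58) at 0 h, 6.85 to 7.26 (median 7.17) at 1 h and 7.06 to 7.54 (median 7.36) at 2 h, with overlapping 0 h and 2 h libraries and a difference of -0.21 (SE 0.07, adjusted p = 0.0041). Its 2 h difference was -0.41 in Elk1-/-Elk4-/- (SE 0.08) and -0.69 with RSKi47 (SE 0.08), and the responses with RSKi47 and in Map3k8[D270A] cells differed by -0.48 (SE 0.11, adjusted p = 0.00033). Sirt4, a mitochondrial sirtuin, fell, with differences of -0.59 (SE 0.08), -0.70 (SE 0.09) and -0.55 (SE 0.09).

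The 3 members with the highest WT level without LPS were Pdxk, Apobec1 and Dnmt3a. Pdxk, the pyridoxal kinase, was 13.58 to 13.67 in WT cells at 0 h and fell, with differences of -0.98 in Map3k8[D270A] (SE 0.05), -0.89 in Elk1-/-Elk4-/- (SE 0.06) and -0.64 with RSKi47 (SE 0.06). Apobec1, a cytidine deaminase of RNA, fell, with differences of -0.99, -0.78 and -0.92, each with an SE of 0.04, and Dnmt3a, a de novo DNA methyltransferase, had differences of -1.11 (SE 0.05), -0.97 (SE 0.06) and -0.70 (SE 0.06).

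In genome features that the rule did not use, 258 members were protein coding and 9 long noncoding in RefSeq. Their longest transcripts had a median length of 3971 bases, against 3149.5 for genes tested with a WT value of at least 6 without LPS, and their promoter windows a median ratio of observed to expected CpG of 0.745 against 0.793. Their median WT value without LPS, which the rule did use, was 8.55, against 9.48. Members lay on every autosome and on X, with 24 on chromosome 11 (8.99%) and 22 on chromosome 4 (8.24%). Of the genes tested with a WT value of at least 6 without LPS, these chromosomes held 8.58% and 6.18%. In 11 cases 2 members overlapped or lay within 20000 bases of each other, as for Acsl3 and Utp14b, Ddi2 and Rsc1a1, Brca2 and N4bp2l1, and Ing4 and Lpar5. Acsl3 with Utp14b and Ddi2 with Rsc1a1 overlap in the annotation, as do A130010J15Rik with Traf3ip3 and Mfsd12 with 4930404N11Rik, so their values may share reads and are uncertain as separate members.

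Beside 23.1% of all genes tested that were lower at 2 h in all 3 groups, 26% that were higher and 2.23% that were members, 31 tested Toll-like receptor pathway genes held 1 member, Tab1, and 18 of the 31 were higher and 4 lower at 2 h in all 3 groups. The 118 tested Rab and Arf regulators held 7 members, among them Tbc1d2, Rab3il1 and Rab7b, with 28 lower and 38 higher, the lower ones (23.7%) near the share over all genes. The 33 tested genes of phosphoinositide, mTOR and AKT signalling held 0 members, with 11 lower (33.3%) and 9 higher (27.3%).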

How the data were processed

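RNA was sequenced from 119 libraries of mouse BMDMs. Per the labels, the authors aligned reads with STAR 2.5.1b, estimated gene counts with RSEM 1.2.29 against mm10 and used DESeq2 1.10.1. The deposited table holds log2 values, already normalised by the authors by a transformation that the sources used here do not name, from -2.4 to 19.81; read depth per library is therefore unknown, and differences are on that scale. The table holds no columns of the authors' own comparisons. A value above 25 (Fosb, RSKi47 replicate 1 at 1 h) was set missing.

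The filter required that 3 or more libraries reach 10 once back on a linear scale. Group means of all 119 libraries were fitted in limma 3.58.1 (R 4.3.3) without an intensity trend, and contrasts were adjusted over the 11971 genes (Benjamini-Hochberg, 0.05); the fit was tested on simulated data. The members and lists were chosen with earlier results of these data known. Named genes were the 12 lowest and 4 highest members by mean 2 h difference over 3 groups, the 3 smallest adjusted p of each comparison of responses, the 2 smallest in each direction at 1 h and with PD0325901 alone, up to 4 members of each list, the 3 with the highest WT level and those at the limits; others were chosen after their values were seen. A few results are not reported here. No 2 libraries were identical. Same-number libraries correlated above 0.1 in every pair for Map3k8[D270A] and RSKi47 between 0 and 2 h (lowest 0.124 and 0.347), so the numbers were taken to pair these. For Elk1-/-Elk4-/- only 3 of 4 pairs did (all 4 between 0 and 1 h), so its 2 h libraries were not taken as paired. Alternatives were an intensity trend, no filter, quantile normalisation, centring, separate fits, a replicate block and leaving out each replicate. Promoters, gene types and positions came from RefSeq, transcript lengths from GENCODE (both GRCm38).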

Additional observations from a re-analysis of the deposited data

Results flagged for a closer look

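Of 240 sets of values (the median over members and 11 of the 12 largest falls, in each group of 4 or more libraries) 13 had a library far from the others, where chance gives about 1 in 20. The median over members was highest in Nfkb1[SS/AA] replicate 3 without LPS (8.646, next 8.574). Fam214a was lowest in Map3k8[D270A] replicate 4 at 1 h (9.603, next 9.882) and in PD0325901 replicate 4 with LPS for 1 h (9.437, next 9.542). Arhgap25 was highest in WT replicate 6 at 2 h (10.028, next 9.894). Foxo3 was lowest in Elk1-/-Elk4-/- replicate 4 without LPS (9.348, next 9.557) and in Nfkb1[SS/AA] replicate 2 at 1 h (8.501, next 9.157). Mnt was lowest in Elk1-/-Elk4-/- replicate 4 without LPS (10.025, next 10.226). Trp53inp1 was highest in Nfkb1[SS/AA] replicate 3 at 0.5 h (10.628, next 10.545). Plekhg3 was lowest in WT replicate 9 at 0.5 h (9.461, next 9.631) and in RSKi47 replicate 3 at 2 h (7.824, next 8.031), and highest in WT replicate 5 at 2 h (7.807, next 7.643). Fos was highest in Elk1-/-Elk4-/- replicate 1 (11.36, next 11.273) and in RSKi47 replicate 1 (12.674, next 11.503), both at 1 h.

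Responses at 2 h differed between groups by limma's test of the difference for Depdc7 (-0.93), Skp2 (-0.76) and Rassf3 (-0.46) in Elk1-/-Elk4-/- minus Map3k8[D270A], for Stk17b (0.85), Fam212b (0.72) and Kantr (0.71) in RSKi47 minus Map3k8[D270A], and for Lonrf3 (0.90), Ccsap (0.87) and Nbr1 (0.48) in RSKi47 minus Elk1-/-Elk4-/-.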

How the results depend on the processing

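Counts of members lower at 2 h, at 1 h and between 1 and 2 h stayed within 1.5 times under the alternatives listed above, but not when a difference of at least 1 was asked for, which left 142, 162 and 92 at 2 h and 76, 106 and 59 between 1 and 2 h in Map3k8[D270A], Elk1-/-Elk4-/- and RSKi47 cells, and at 1 h 2 with PD0325901 and 0 in the other 4 groups. Other choices of WT libraries gave 247 to 290 members (without replicate 8 and without replicate 7), and quantile normalisation gave 261, of which 197 were among the 267; under it the median of all genes was -0.10, -0.09 and -0.08 at 2 h in Map3k8[D270A], Elk1-/-Elk4-/- and RSKi47 cells and between -0.05 and -0.03 at 1 h. With a replicate block, unlike 2 h responses numbered 110 (Elk1-/-Elk4-/- against Map3k8[D270A], 70 with the larger fall in Elk1-/-Elk4-/-), 110 (RSKi47 against Map3k8[D270A]) and 135 (RSKi47 against Elk1-/-Elk4-/-, 121 with the smaller fall with RSKi47), and members changed by PD0325901 alone 45; the block changed no count of lower members at 1 or 2 h by over 1.5 times. Fitted on their own groups alone, the first 2 numbered 37 and 42, and PD0325901 alone 45. With Map3k8[D270A] replicates 1 to 3 or 4 to 6 alone (chosen after seeing the data), RSKi47 against Map3k8[D270A] numbered 104 or 41. Leaving out replicates gave 13 to 23 members changed by PD0325901 alone, and median 2 h responses of -1.10 to -1.07 in Elk1-/-Elk4-/- and -0.91 to -0.87 with RSKi47, which was -0.91 after quantile normalisation. The 1 h difference of Fam214a with PD0325901 turned to -0.032 under quantile normalisation and ran from -0.0014 to 0.042 without single replicates, and that of Per1 with RSKi47 from -0.042 to 0.32. Without the Nfkb1[SS/AA] library of replicate 2 at 1 h (chosen after seeing the data) 164 members were lower at 1 h. The cause of these shifts was not tested. Depth is unknown, so precision rests on the spread between libraries.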
